A study of Homo sapiens with 24 samples.

Results

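The 32 genes described here are NRF2 (gene symbol NFE2L2), 3 of its regulators (KEAP1, MAFG and BACH1) and 28 classic targets, matched by symbol to the 58381 gene IDs of a table of FPKM (fragments scaled for transcript length and for the mapped total of each library). Each symbol matched 1 ID, and all 32 reached a mean of 0.5 FPKM, as did 14228 of all IDs. The cells were HaCaT, an immortalised, non-tumorigenic human keratinocyte line. As labelled, 3 clones carried transduced hsa-miR-186 and 3 an empty vector. Each line was kept with 100 or 0 nM inorganic arsenic (iAs), and RNA was taken at weeks 29 and 12. The 8 groups of 3 libraries were therefore miR-186 clones at 100 nM, miR-186 clones at 0 nM, vector clones at 100 nM and vector clones at 0 nM, each at week 29 and week 12. All groups share the transduction and the clonal selection, and the 0 nM groups were grown as long as the exposed ones. The labels call the samples independent triplicates and do not say which clone has which replicate number, so p-values measure the spread between these libraries.

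NRF2 is a transcription factor that pairs with small MAF proteins such as MAFG at antioxidant response elements, short DNA stretches near its target genes. KEAP1 holds NRF2 in the cytoplasm and hands it to a ubiquitin ligase for destruction until oxidants or electrophiles, arsenic among them, modify KEAP1 cysteines, while BACH1 competes for the same elements as a repressor. The targets make and recycle glutathione, run the thioredoxin system, supply NADPH and modify or export reactive compounds, and in epidermis the pathway is known for protecting keratinocytes from chemical and ultraviolet stress. NRF2 is controlled largely through the stability of its protein, which was not measured here.

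The elements are shown because NRF2 is known to act through them. Promoter windows of 300 bases (250 before and 50 after the start site, RefSeq, GRCh38.p14) were found for 23 of the members, in 33 windows. The core letters TGACNNNGC, on either strand, were in a window of 8 of these 23 genes (34.8%), against 16.1% of the 27305 genes with windows. The same core followed by A was in 6 of 23 (26.1%), against 3.94% of all genes. Sites of the longer form are printed 5′ to 3′ along the strand that reads TGAC, with the 9 core bases in capitals.
GCLM (chr1:93909446-93909474, plus strand): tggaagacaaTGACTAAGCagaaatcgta
TXNRD1 (chr12:104286920-104286948, minus strand): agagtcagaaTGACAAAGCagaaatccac
GPX2 (chr14:64942849-64942877, plus strand): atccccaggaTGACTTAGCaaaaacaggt
EPHX1 (chr1:225825266-225825294, plus strand): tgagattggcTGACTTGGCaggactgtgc
CBR1 (chr21:36069855-36069883, minus strand): ccagctagccTGACTTTGCagaacccgca
KEAP1 (chr19:10502784-10502812, plus strand): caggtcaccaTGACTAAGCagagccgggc
The GCLM, GPX2, KEAP1 and CBR1 sites read against the gene's own strand, as does the TXNRD1 site, while the EPHX1 site reads along it. Distances are from the start site of the same window to the leftmost core base on the gene's strand. They were 34 bases upstream in GCLM, 122 in GPX2, 31 in KEAP1, 159 in CBR1, 102 in TXNRD1 and 78 in EPHX1. In each of these genes that start site lies inside the annotated gene. TXNRD1, EPHX1 and CBR1 begin at 104215779, 225810092 and 36069941 on the plus strand. GCLM, GPX2 and KEAP1 begin at 93909456, 64942905 and 10503741 on the minus strand. The printed TXNRD1, EPHX1, GPX2 and KEAP1 sites themselves lie within the annotated genes. The TXNRD1 window at the gene's first base held only the shorter core, 99 and 8 bases upstream. PGD and ME1 held only the shorter core. The first of 2 ME1 cores, 137 bases before the start site, holds TGACTCA, the letters of an AP-1 site, which were in a window of 6.05% of all genes on either strand. A match is a run of letters and not a measured site. GSR, GSS, SLC7A11, PRDX1, PRDX6, HMOX1, AKR1B10, CBR3 and ABCC3 were not searched.

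FPKM summed to 712797 to 905683 per library, 13803 to 14588 genes reached 0.5 FPKM, and no pair of libraries was identical. The deposited values give no read counts, so depth is unknown. All 12 keratinocyte markers were expressed (summed FPKM 1994 to 6818 per library). The lists of other cell types were mixed. TYR (melanocyte) was at 0 in all libraries. COL1A2 and PDGFRB (fibroblast), PTPRC (leukocyte) and PECAM1 (endothelial) averaged 0.0006, 0.0057, 0.0519 and 0.0113 FPKM. However, 3 of 6 fibroblast markers averaged at least 0.5 FPKM. These were DCN (6.56 FPKM, up to 78.0 FPKM in a library), LUM (3.95 FPKM, up to 17.2 FPKM) and COL1A1 (1.36 FPKM). So did 1 marker of each remaining list, CDH5 (endothelial, 12.0 FPKM), CD68 (leukocyte, 3.32 FPKM) and PMEL (melanocyte, 1.23 FPKM). A measure that moved with the groups was the slope of gene level against gene GC content. It averaged 0.28 ± 0.13 log2 units per 10 points of GC in vector clones at 100 nM and week 12 and −0.14 ± 0.06 in those at 0 nM (SD, n = 3 each). At week 12, miR-186 clones stood at 0.21 ± 0.14 at 100 nM and 0.04 ± 0.12 at 0 nM, and at week 29 at −0.14 ± 0.21 and −0.26 ± 0.07. Vector clones at week 29 stood at 0.04 ± 0.29 at 100 nM and −0.04 ± 0.17 at 0 nM. Its part in each result was not tested, and values after removing it are given where they end the call of a named gene.

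The members together made up 2925 to 4699 FPKM per library, 0.368% to 0.603% of all FPKM, with a median of 3683 FPKM. Thioredoxin (TXN), the small protein that reduces disulfides, was the highest member at a mean of 871 FPKM. The peroxidases PRDX1 (583 FPKM) and PRDX6 (343 FPKM) followed, and TXN and PRDX1 alone held 28.6% to 47.9% of the members' FPKM. The lowest members were OSGIN1 (1.58 FPKM), AKR1B10 (1.76 FPKM) and HMOX1 (3.66 FPKM). HMOX1 also varied most, from 0.749 to 25.0 FPKM over the 24 libraries, a 33.3-fold range, whereas UGDH, which makes UDP-glucuronate, varied least, from 37.4 to 60.7 FPKM, a 1.62-fold range. In bulk RNA, fewer cells expressing a gene and less RNA per cell cannot be told apart.

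Among the regulators, NFE2L2 was lower at 100 nM than at 0 nM iAs in vector clones at week 12, and the same 0 nM group was also higher than untreated miR-186 clones. MAFG rose in untreated miR-186 clones at week 12. KEAP1 and BACH1 passed the threshold (limma, Benjamini-Hochberg adjusted p of 0.05 over 14228 genes) in none of 17 comparisons. NFE2L2 (ENSG00000116044, GRCh38 chromosome 2, 177227595 to 177392697, minus strand) encodes NRF2. In miR-186 clones NFE2L2 had 131, 105 and 118 FPKM at 100 nM against 128, 162 and 129.8 FPKM at 0 nM at week 29, and 95.9, 98.4 and 119.7 FPKM at 100 nM against 125, 130.2 and 126 FPKM at 0 nM at week 12. In vector clones NFE2L2 had 128, 119 and 163 FPKM at 100 nM against 109.7, 127 and 139 FPKM at 0 nM at week 29, and 132, 116 and 116 FPKM at 100 nM against 181, 205 and 169 FPKM at 0 nM at week 12. The 3 untreated vector libraries of week 12, at 169 to 205 FPKM, lay above the other 21, which ran from 95.9 to 163 FPKM. In vector clones at week 12, NFE2L2 averaged 121 ± 9.05 FPKM at 100 nM and 185 ± 18.1 FPKM at 0 nM (SD, n = 3 each), a log2 change of −0.61 ± 0.14 (SE; limma adjusted p = 0.0479). Untreated miR-186 clones at week 12 averaged 127 ± 2.77 FPKM, a log2 difference of −0.54 ± 0.14 from the same vector libraries (adjusted p = 0.043). In untreated vector clones, week 29 averaged 125 ± 14.6 FPKM, −0.56 ± 0.14 against week 12 (adjusted p = 0.0719). These 3 contrasts share the untreated vector libraries of week 12. With the GC correction the changes were −0.45 (adjusted p = 0.142) for iAs, −0.42 for miR-186, which still passed, and −0.49 (adjusted p = 0.0436) for weeks.

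MAFG, the small MAF partner (ENSG00000197063, GRCh38 chromosome 17, 81918270 to 81927714, minus strand), had its lowest values in the same untreated vector libraries. In miR-186 clones MAFG had 4.85, 7.09 and 4.02 FPKM at 100 nM against 5.09, 4.67 and 4.51 FPKM at 0 nM at week 29, and 6.63, 7.97 and 6.61 FPKM at 100 nM against 4.80, 5.78 and 6.54 FPKM at 0 nM at week 12. In vector clones MAFG had 5.95, 6.43 and 4.15 FPKM at 100 nM against 5.09, 4.60 and 4.51 FPKM at 0 nM at week 29, and 5.35, 5.00 and 6.69 FPKM at 100 nM against 3.29, 2.38 and 3.96 FPKM at 0 nM at week 12. Untreated vector libraries at week 12, at 2.38 to 3.96 FPKM, did not overlap those of untreated miR-186 clones of that week, at 4.80 to 6.54 FPKM. Untreated miR-186 clones averaged 5.71 ± 0.872 FPKM and vector clones 3.21 ± 0.792 FPKM, a log2 difference of 0.76 ± 0.21 (adjusted p = 0.0473). Under iAs at week 12 the vector clones stood at 5.68 ± 0.891 FPKM, 0.75 ± 0.21 over 0 nM (adjusted p = 0.0548), and 0.31 with the GC correction. The strand setting of the counting is not given in the sources used here, and annotated exons of other genes overlap NFE2L2 (AGPS, 54 bases on the opposite strand) and MAFG (SIRT7, 105 bases on the same strand), so part of their reads is uncertain. The same limit applies to further members. Among them are OSGIN1 (AC009119.2, 160 bases on the same strand, mean 2.29 FPKM) and SQSTM1 (MRNIP, 803 bases on the opposite strand).

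KEAP1, the sensor that marks NRF2 for degradation, passed in no iAs comparison. In miR-186 clones KEAP1 had 18.9, 33.1 and 25.1 FPKM at 100 nM against 22.6, 23.6 and 19.1 FPKM at 0 nM at week 29, and 29.9, 43.3 and 32.5 FPKM at 100 nM against 25.0, 33.4 and 25.1 FPKM at 0 nM at week 12. In vector clones KEAP1 had 38.3, 38.9 and 21.5 FPKM at 100 nM against 28.9, 34.1 and 21.4 FPKM at 0 nM at week 29, and 28.3, 34.3 and 31.0 FPKM at 100 nM against 22.5, 24.2 and 23.4 FPKM at 0 nM at week 12. Exposed and unexposed libraries overlapped in 3 of the 4 comparisons and not in vector clones at week 12 (0.40 ± 0.23; adjusted p = 0.24). The iAs change was above 0 in each construct and week, but with the GC correction it was −0.21 in vector clones at week 12 and averaged −0.00, against 0.28 without it. BACH1, the repressor of the same elements, is the 1 member with a change below 0 in each construct and week. In miR-186 clones BACH1 had 11.6, 11.8 and 11.6 FPKM at 100 nM against 11.2, 16.2 and 11.8 FPKM at 0 nM at week 29, and 10.9, 14.0 and 12.2 FPKM at 100 nM against 15.7, 24.1 and 13.0 FPKM at 0 nM at week 12. In vector clones BACH1 had 12.6, 11.3 and 13.4 FPKM at 100 nM against 10.4, 17.6 and 15.8 FPKM at 0 nM at week 29, and 15.1, 18.0 and 10.3 FPKM at 100 nM against 15.3, 27.1 and 14.3 FPKM at 0 nM at week 12. The ranges overlapped in every iAs comparison, and replicate 2 of the untreated vector clones at week 12 held the highest value. The average iAs change of BACH1 was −0.28 ± 0.13 (adjusted p = 0.144).

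**Figure D1:**
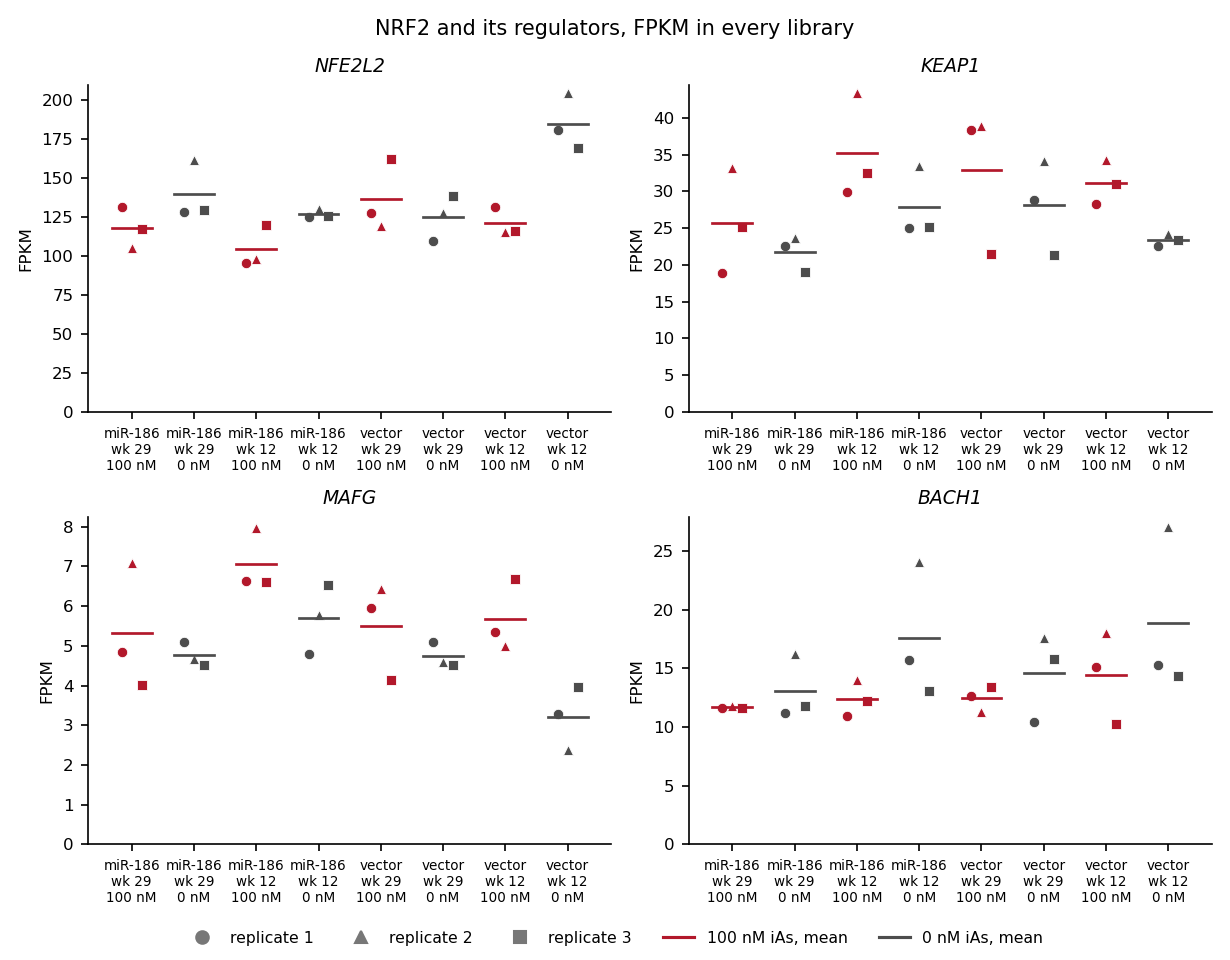
FPKM of NFE2L2, KEAP1, MAFG and BACH1 in each of 24 libraries (y axis, from 0) by construct, week and iAs dose (x axis); symbols mark the replicate number, lines the mean of 3 libraries, red 100 nM and grey 0 nM. The untreated vector clones of week 12 hold the 3 highest NFE2L2 values (169 to 205 FPKM) and, for MAFG, the lowest group (2.38 to 3.96 FPKM).

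The effect of arsenic was compared within each construct and week. In vector clones at week 12, 1 member rose and 1 fell, ABCC3 and NFE2L2, against 1.38% of all genes called (0.654% higher and 0.731% lower). In the other 3 iAs comparisons limma called 0 members and 0% of all genes. At an unadjusted p under 0.05, 4 members were higher in miR-186 clones at week 29 (2.19% of all genes in either direction), 2 in miR-186 clones at week 12 (11% of all genes), 1 in vector clones at week 29 (3.9%), and 3 were higher and 3 lower in vector clones at week 12 (29.3%). None was lower in the first 3. The median log2 change of the members was 0.15 in miR-186 clones at week 29 and 0.16 at week 12, and 0.21 in vector clones at week 29 and 0.20 at week 12. The medians of all genes were −0.01, 0.02, 0.03 and 0.00 in the same order, so the median of the members lay above that of all genes in each.

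The libraries of exposed and unexposed cells did not overlap for 4 members in miR-186 clones at week 29 (TXNRD1, SRXN1, HMOX1 and AKR1C2, all higher), against 5.62% of all genes (2.21% higher). At week 12 they did not overlap for 6 members in miR-186 clones (17% of all genes) and for 6 in vector clones (37.2%), and at week 29 for 2 in vector clones (SLC7A11 and PRDX6; 9.9%). In 13 of the 32 members (40.6%) the mean was higher at 100 nM in each of the 4 comparisons, against 18.7% of all genes, and in 1 (3.12%), BACH1, it was lower, against 16.1%. The 13 were KEAP1, MAFG, GCLC, GSR, SRXN1, PRDX6, TKT, HMOX1, AKR1C1, AKR1C2, AKR1C3, ABCC3 and OSGIN1. The 13 were the same with median ratio scaling. With the GC correction 10 members were higher in each, AKR1C1, AKR1C2, AKR1C3, GCLC, GSR, HMOX1 and PRDX6 of the 13 together with GCLM, ME1 and SLC7A11, and 2 were lower, BACH1 and CBR3. The shares of 18.7% and 16.1% of all genes are for values without scaling or correction, and no corrected share is given here. The 4 comparisons share no library but come from the same lines.

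**Figure D2:**
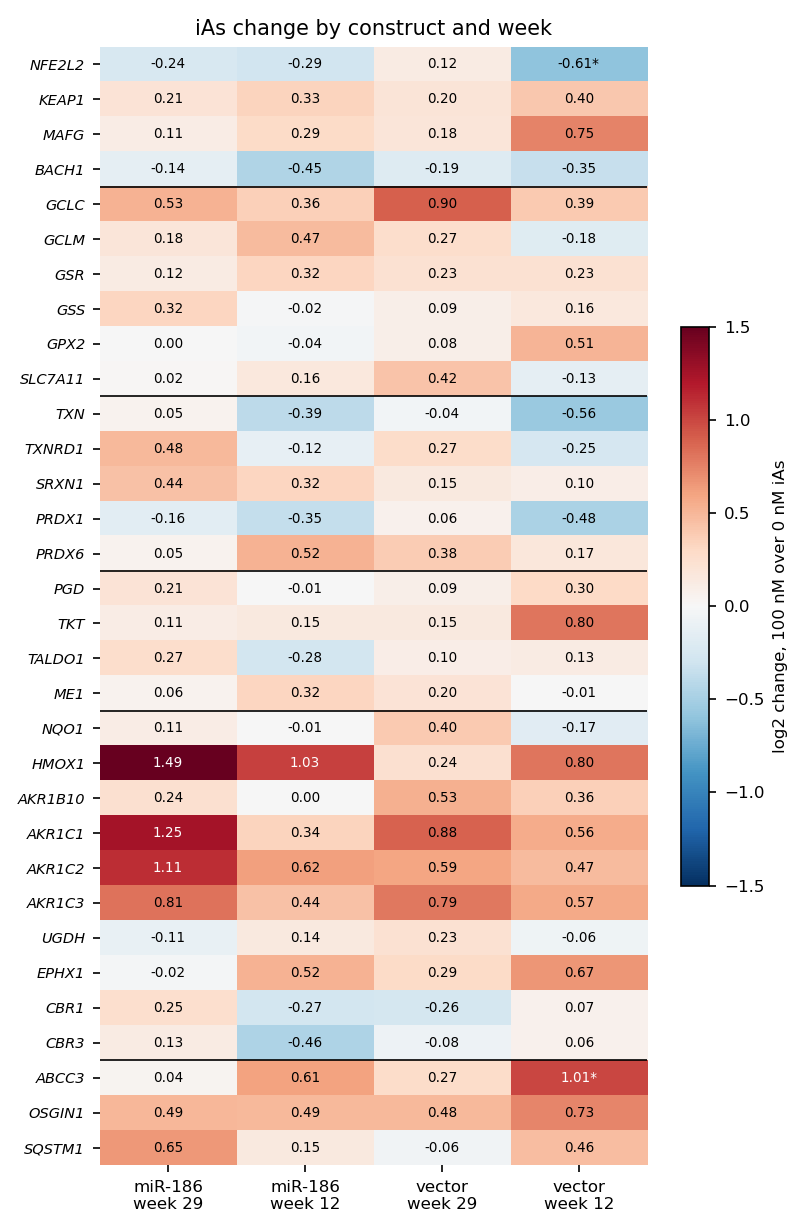
Log2 change of each member at 100 nM over 0 nM iAs (colour and printed value, log2(FPKM + 0.5)) in miR-186 and vector clones at weeks 29 and 12 (columns), with lines between the regulators, glutathione, thioredoxin, NADPH, detoxification and other target genes; an asterisk marks an adjusted p under 0.05. The AKR1C genes and GCLC are above 0 in all 4 columns, and the only called values are −0.61 for NFE2L2 and 1.01 for ABCC3 in vector clones at week 12.

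Averaged over constructs and weeks, ABCC3, AKR1C2 and GCLC rose with iAs and NFE2L2 fell. These are 4 of 32 members, against 7.58% of all genes (413 or 2.9% higher and 665 or 4.67% lower). Of the members 26 lay above 0 (81.2%), against 52.3% of all genes, and the median change was 0.21, against 0.02. The count above 0 was 26 with median ratio scaling and 24 with the GC correction. The 52.3% of all genes is for values without either, and no share is given here for the scaled or corrected values. ABCC3 changed by 0.48 ± 0.09 (adjusted p = 0.0227), AKR1C2 by 0.70 ± 0.20 (adjusted p = 0.0391), GCLC by 0.54 ± 0.16 (adjusted p = 0.0418) and NFE2L2 by −0.25 ± 0.07 (adjusted p = 0.0391). NFE2L2 did not fall in each stratum. In vector clones at week 29 it averaged 137 ± 22.9 FPKM at 100 nM and 125 ± 14.6 FPKM at 0 nM. Next in order were MAFG (0.33 ± 0.10; adjusted p = 0.052), AKR1C1 (0.76 ± 0.24; adjusted p = 0.0545), AKR1C3 (0.65 ± 0.21; adjusted p = 0.0612) and HMOX1 (0.89 ± 0.30; adjusted p = 0.0649), which did not pass. The fit counts the 24 libraries as independent, although each line gave libraries at both doses and weeks.

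The 4 calls stood close to the threshold. With the GC correction none passed, with adjusted p of 0.0615 for ABCC3, 0.0506 for AKR1C2, 0.0506 for GCLC and 0.103 for NFE2L2. The change was larger with that correction for AKR1C2 (0.85) and GCLC (0.64) and smaller for ABCC3 (0.31) and NFE2L2 (−0.18). ABCC3 kept its call without each of 23 libraries and lost it without replicate 3 of vector clones at 0 nM and week 29 (adjusted p = 0.0516). AKR1C2, GCLC and NFE2L2 lost theirs without 13, 16 and 16 of the 24 libraries, with adjusted p up to 0.0828, 0.0863 and 0.0849. ABCC3 was the 1 member called without each of 9 libraries, namely vector 0 nM week 12 replicates 1 and 2, vector 100 nM week 12 replicate 3, miR-186 0 nM week 12 replicate 2, miR-186 100 nM week 12 replicate 2, vector 100 nM week 29 replicates 1 and 2, and miR-186 0 nM week 29 replicates 2 and 3. The share of all genes called without each of these 9 is not given here, so the count of 1 cannot be set against it. Of the exposed miR-186 libraries of week 29, leaving out replicate 2 gave 2 called members (4.43% of all genes), replicate 3 gave 2 (3.23%) and replicate 1 gave 8 (13.4%). Without replicate 3 of vector clones at 100 nM and week 29 there were 10, against 21.6% of all genes, and without replicate 3 of those at 0 nM there were 0, against 0.0843%.

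**Figure D3:**
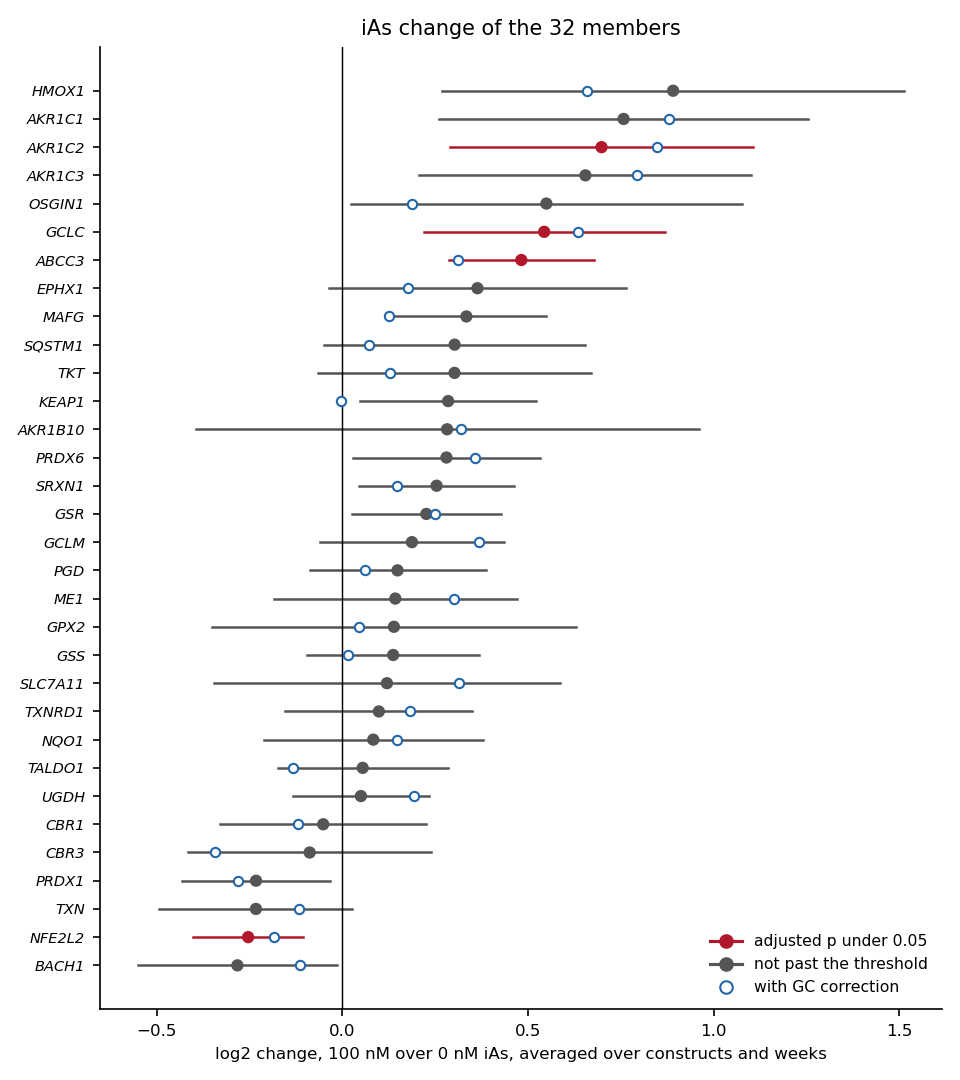
Average log2 change at 100 nM over 0 nM iAs (x axis, log2(FPKM + 0.5)) of the 32 members (y axis), with 95% confidence intervals from limma over 24 libraries; red marks an adjusted p under 0.05 and open blue circles the change after the GC correction. HMOX1 (0.89) and AKR1C1 (0.76) have the largest changes but wide intervals, and KEAP1 moves to zero with the correction.

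All 6 glutathione genes lay above 0 in the average over constructs and weeks, and GCLC passed. GCLC (ENSG00000001084, GRCh38 chromosome 6, 53497341 to 53616970, minus strand) encodes the catalytic subunit of glutamate-cysteine ligase, the rate-limiting enzyme of glutathione synthesis. In miR-186 clones GCLC had 180.3, 137 and 185 FPKM at 100 nM against 122, 90.8 and 139 FPKM at 0 nM at week 29, and 91.7, 75.1 and 107 FPKM at 100 nM against 64.7, 56.1 and 96.4 FPKM at 0 nM at week 12. In vector clones GCLC had 146, 241 and 223 FPKM at 100 nM against 84.1, 155 and 92.7 FPKM at 0 nM at week 29, and 68.4, 105 and 200.1 FPKM at 100 nM against 88.3, 83.5 and 86.2 FPKM at 0 nM at week 12. Exposed libraries ran from 68.4 to 241 FPKM with a median of 142 FPKM, and unexposed ones from 56.1 to 155 FPKM with a median of 89.5 FPKM, so the doses overlapped. Within vector clones at week 29 its change was 0.90 ± 0.31 (203 ± 50.1 against 111 ± 38.6 FPKM; adjusted p = 1), the smallest p of any member there. The FPKM of GCLC, GCLM (the modifier subunit) and GSS (the next enzyme) summed to 297 ± 31.7 at 100 nM and 227 ± 45.9 at 0 nM in miR-186 clones at week 29, and to 316 ± 48.6 and 208 ± 37.0 in vector clones.

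SLC7A11, the cystine importer and also a target of ATF4, passed in no comparison. In miR-186 clones SLC7A11 had 25.6, 21.0 and 31.2 FPKM at 100 nM against 24.9, 20.9 and 30.6 FPKM at 0 nM at week 29, and 14.5, 10.1 and 14.5 FPKM at 100 nM against 8.09, 8.50 and 21.6 FPKM at 0 nM at week 12. In vector clones SLC7A11 had 16.7, 19.2 and 27.3 FPKM at 100 nM against 15.5, 15.5 and 14.8 FPKM at 0 nM at week 29, and 8.36, 6.06 and 20.2 FPKM at 100 nM against 16.9, 4.39 and 18.0 FPKM at 0 nM at week 12. Replicate 2 of untreated vector clones at week 12 was the lowest of the 24 libraries and replicate 3 of exposed miR-186 clones at week 29 the highest. GPX2, a glutathione peroxidase of epithelia, was lower in the miR-186 group in all 4 comparisons of constructs, and none of them passed. In miR-186 clones GPX2 had 84.7, 140.2 and 133 FPKM at 100 nM against 88.1, 219 and 82.0 FPKM at 0 nM at week 29, and 127, 205 and 316 FPKM at 100 nM against 334, 229.8 and 115 FPKM at 0 nM at week 12. In vector clones GPX2 had 264, 369 and 156 FPKM at 100 nM against 204, 343 and 183 FPKM at 0 nM at week 29, and 355, 573 and 289 FPKM at 100 nM against 225, 478 and 189 FPKM at 0 nM at week 12. At 100 nM and week 29 the constructs did not overlap (119 ± 30.1 FPKM in miR-186 and 263 ± 107 FPKM in vector clones; −1.09 ± 0.47, adjusted p = 0.285). GSR, which reduces oxidised glutathione, kept within 40.6 to 79.1 FPKM.

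In the thioredoxin system no member passed for iAs, and 3 of 5 lay above 0 on average. TXN was lower in exposed than in unexposed cells at week 12 in both constructs, with values that did not pass. In miR-186 clones TXN had 953, 1142 and 1009.6 FPKM at 100 nM against 791, 1221 and 1029 FPKM at 0 nM at week 29, and 740.5, 466 and 885 FPKM at 100 nM against 865, 792 and 1002 FPKM at 0 nM at week 12. In vector clones TXN had 747, 787 and 1131 FPKM at 100 nM against 812, 958 and 923 FPKM at 0 nM at week 29, and 501, 477 and 963 FPKM at 100 nM against 875, 905 and 922 FPKM at 0 nM at week 12. In vector clones at week 12, replicate 3 of the exposed group, at 963 FPKM, lay above all 3 unexposed libraries while the other 2 lay below them, and the change was −0.56 ± 0.25 (adjusted p = 0.147). TXNRD1 (ENSG00000198431, GRCh38 chromosome 12, 104215779 to 104350305, plus strand), the reductase that recharges thioredoxin, was highest in exposed miR-186 clones at week 29. In miR-186 clones TXNRD1 had 219, 222 and 209 FPKM at 100 nM against 152, 137 and 178 FPKM at 0 nM at week 29, and 136, 101 and 153 FPKM at 100 nM against 101, 121 and 222 FPKM at 0 nM at week 12. In vector clones TXNRD1 had 112, 153 and 144 FPKM at 100 nM against 104, 121 and 110.0 FPKM at 0 nM at week 29, and 77.1, 85.7 and 141 FPKM at 100 nM against 117, 112 and 119.8 FPKM at 0 nM at week 12. The 3 libraries of that group lay within 209 to 222 FPKM, and of the other 21 only replicate 3 of untreated miR-186 clones at week 12 reached that level.

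TXNRD1 rose with time in miR-186 clones at 100 nM, to 217 ± 6.70 FPKM at week 29, against 130.2 ± 26.7 FPKM at week 12 (0.75 ± 0.24; adjusted p = 0.0471). It was the 1 member called of 32, against 12.2% of all genes (7.11% higher). The call was lost without each of replicates 1, 2 and 3 of week 29 and replicates 1 and 2 of week 12 (adjusted p 0.0666 to 0.249), with median ratio scaling (adjusted p = 0.0547) and with the GC correction (adjusted p = 0.122). Here same-numbered libraries deviated together, and with the replicate block 2 members passed, TXNRD1 and GCLC, against 22.4% of all genes. SRXN1, the sulfiredoxin that restores overoxidised peroxiredoxins, had no overlap between weeks in 3 of the 4 comparisons of week 29 with week 12, with changes of 0.43 ± 0.20 in miR-186 clones at 100 nM and 0.46 ± 0.20 and 0.40 ± 0.20 in vector clones at 100 and 0 nM. None passed (adjusted p = 0.144, 0.309 and 0.552). PRDX6, a peroxidase that uses glutathione, stood at 389 ± 114 FPKM at 100 nM and 269.7 ± 78.7 FPKM at 0 nM in miR-186 clones at week 12 (0.52 ± 0.24; adjusted p = 0.446). PRDX1 passed in no comparison, and its average iAs change was −0.23 ± 0.10 (adjusted p = 0.111).

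The genes grouped here under NADPH are PGD, TKT and TALDO1 of the pentose phosphate pathway and ME1, malic enzyme. The grouping is by pathway, and not each of these enzymes makes NADPH itself. All 4 lay above 0 in the iAs average, with changes of 0.05 to 0.30, except that TALDO1 stood at −0.13 with the GC correction, and none passed. Replicate 3 of exposed vector clones at week 12 held the highest value of all 24 libraries for each of the 4, for example 326 FPKM for TKT and 191 FPKM for PGD. The summed FPKM of the 4 genes was 717 in that library, against a median of 382 over all libraries. The same library was also highest for PRDX6, NQO1, CBR3, ABCC3 and OSGIN1. PGD was lower in untreated miR-186 than in untreated vector clones at week 29 (87.5 ± 14.0 against 137 ± 0.806 FPKM; −0.66 ± 0.23, adjusted p = 0.116), with no overlap and no call.

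Among detoxification genes the aldo-keto reductases AKR1C1, AKR1C2 and AKR1C3, which reduce carbonyls and steroids, lay above 0 under iAs in both constructs at both weeks. They are closely related paralogs, so reads could be split between them and single values are uncertain. AKR1C2 (ENSG00000151632, GRCh38 chromosome 10, 4987400 to 5018031, minus strand) carried most of the signal. In miR-186 clones AKR1C2 had 58.5, 104 and 59.6 FPKM at 100 nM against 28.5, 29.9 and 41.5 FPKM at 0 nM at week 29, and 26.9, 33.6 and 63.6 FPKM at 100 nM against 38.0, 25.0 and 16.5 FPKM at 0 nM at week 12. In vector clones AKR1C2 had 46.2, 80.2 and 68.0 FPKM at 100 nM against 32.3, 58.1 and 38.5 FPKM at 0 nM at week 29, and 19.6, 27.3 and 63.8 FPKM at 100 nM against 20.1, 24.1 and 25.9 FPKM at 0 nM at week 12. At week 29 in miR-186 clones the doses did not overlap, at 58.5 to 104 FPKM for 100 nM and 28.5 to 41.5 FPKM for 0 nM, with a change of 1.11 ± 0.39 (adjusted p = 0.999). In vector clones they overlapped at both weeks.

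AKR1C1 averaged 4.81 FPKM over all libraries, against 42.9 FPKM for AKR1C2. In miR-186 clones AKR1C1 had 2.51, 9.60 and 7.55 FPKM at 100 nM against 2.79, 1.41 and 2.40 FPKM at 0 nM at week 29, and 2.28, 4.14 and 6.09 FPKM at 100 nM against 5.08, 3.54 and 1.37 FPKM at 0 nM at week 12. In vector clones AKR1C1 had 6.77, 11.4 and 8.93 FPKM at 100 nM against 3.52, 7.09 and 3.77 FPKM at 0 nM at week 29, and 2.95, 3.97 and 8.84 FPKM at 100 nM against 2.11, 4.30 and 3.09 FPKM at 0 nM at week 12. Its change was 1.25 ± 0.48 in miR-186 clones at week 29 (adjusted p = 0.999) and 0.88 ± 0.48 in vector clones (adjusted p = 1). The sum of the 3 genes was 86.1 ± 31.8 FPKM at 100 nM and 38.3 ± 7.40 FPKM at 0 nM in miR-186 clones at week 29. It was 51.2 ± 23.0 and 33.7 ± 13.6 FPKM at week 12. In vector clones the sum was 79.1 ± 21.5 and 50.6 ± 16.8 FPKM at week 29, and 46.7 ± 28.9 and 29.4 ± 4.99 FPKM at week 12 (SD, n = 3 each).

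HMOX1, heme oxygenase 1, was higher in 100 nM libraries on average but with wide spread. In miR-186 clones HMOX1 had 4.43, 25.0 and 3.12 FPKM at 100 nM against 2.84, 1.80 and 2.14 FPKM at 0 nM at week 29, and 4.78, 9.46 and 1.72 FPKM at 100 nM against 1.10, 2.74 and 2.16 FPKM at 0 nM at week 12. In vector clones HMOX1 had 2.51, 6.05 and 1.44 FPKM at 100 nM against 2.41, 3.75 and 1.37 FPKM at 0 nM at week 29, and 2.19, 1.46 and 2.48 FPKM at 100 nM against 1.08, 0.749 and 1.00 FPKM at 0 nM at week 12. Replicate 2 of exposed miR-186 clones at week 29, at 25.0 FPKM, was the highest of the 24, and the same library held the highest SQSTM1 (343 FPKM), AKR1C2, AKR1C3, SRXN1 and TXNRD1. In vector clones at week 12 exposed and unexposed libraries did not overlap, at 1.46 to 2.48 and 0.749 to 1.08 FPKM (0.80 ± 0.60; adjusted p = 0.379). The changes in miR-186 clones were 1.49 ± 0.60 at week 29 (adjusted p = 0.999) and 1.03 ± 0.60 at week 12 (adjusted p = 0.542). NQO1, the quinone reductase often used as an NRF2 readout, stayed within 136 to 292 FPKM, with an average iAs change of 0.08 ± 0.14 (95% interval −0.21 to 0.38).

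AKR1B10, a retinal and aldehyde reductase, passed in no comparison of groups. In miR-186 clones AKR1B10 had 1.15, 1.01 and 1.73 FPKM at 100 nM against 0.688, 2.34 and 0.495 FPKM at 0 nM at week 29, and 0.841, 1.31 and 2.42 FPKM at 100 nM against 2.62, 0.729 and 1.36 FPKM at 0 nM at week 12. In vector clones AKR1B10 had 1.06, 2.18 and 1.39 FPKM at 100 nM against 0.457, 2.51 and 0.412 FPKM at 0 nM at week 29, and 1.34, 5.20 and 1.81 FPKM at 100 nM against 0.749, 7.93 and 0.595 FPKM at 0 nM at week 12. Replicate 2 was the highest of its group in each of the 4 vector groups. EPHX1 (microsomal epoxide hydrolase), UGDH and the carbonyl reductases CBR1 and CBR3 passed in no comparison of groups without a replicate block, with average iAs changes of 0.36, 0.05, −0.05 and −0.09.

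Of the other targets, ABCC3 (ENSG00000108846, GRCh38 chromosome 17, 50634777 to 50692252, plus strand), an exporter of glucuronide and other organic anion conjugates, rose in vector clones at week 12. In miR-186 clones ABCC3 had 24.2, 23.7 and 22.9 FPKM at 100 nM against 22.1, 26.0 and 21.1 FPKM at 0 nM at week 29, and 28.1, 30.3 and 30.4 FPKM at 100 nM against 20.1, 16.03 and 22.1 FPKM at 0 nM at week 12. In vector clones ABCC3 had 22.7, 32.7 and 17.8 FPKM at 100 nM against 19.3, 22.3 and 17.1 FPKM at 0 nM at week 29, and 27.1, 28.2 and 33.7 FPKM at 100 nM against 14.1, 11.9 and 18.0 FPKM at 0 nM at week 12. In both constructs all exposed libraries of week 12 lay above all unexposed ones, and at week 29 they overlapped in both, where the change in miR-186 clones was −0.05 with the GC correction. In vector clones at week 12 the change was 1.01 ± 0.19 (29.7 ± 3.51 FPKM at 100 nM and 14.7 ± 3.10 FPKM at 0 nM; adjusted p = 0.0411). In miR-186 clones it was 0.61 ± 0.19 (29.6 ± 1.28 and 19.4 ± 3.11 FPKM; adjusted p = 0.348). The difference between the weeks was −0.73 ± 0.26 in vector and −0.57 ± 0.26 in miR-186 clones (week 29 minus week 12), which did not pass (adjusted p = 0.656 and 1).

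The week 12 calls of ABCC3 and NFE2L2 in vector clones were both lost without any 1 of the 6 libraries, replicates 1, 2 and 3 at 100 nM and at 0 nM (adjusted p 0.0678 to 0.15 for ABCC3 and 0.0694 to 0.169 for NFE2L2). With the GC correction ABCC3 changed by 0.66 and both had an adjusted p of 0.142. OSGIN1, an oxidative stress growth inhibitor, was the lowest member. In miR-186 clones OSGIN1 had 0.278, 2.64 and 1.62 FPKM at 100 nM against 0.715, 0.625 and 0.858 FPKM at 0 nM at week 29, and 1.81, 3.42 and 2.40 FPKM at 100 nM against 1.38, 1.63 and 1.85 FPKM at 0 nM at week 12. In vector clones OSGIN1 had 1.80, 2.65 and 0.371 FPKM at 100 nM against 1.15, 0.968 and 0.460 FPKM at 0 nM at week 29, and 0.978, 1.48 and 5.50 FPKM at 100 nM against 0.849, 1.01 and 1.38 FPKM at 0 nM at week 12. Exposed and unexposed libraries overlapped in each construct and week, and the average change of 0.55 ± 0.25 (adjusted p = 0.149) was 0.19 with the GC correction. SQSTM1, the autophagy adaptor p62 that binds KEAP1, ran from 79.3 to 343 FPKM and passed in no comparison.

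**Figure D4:**
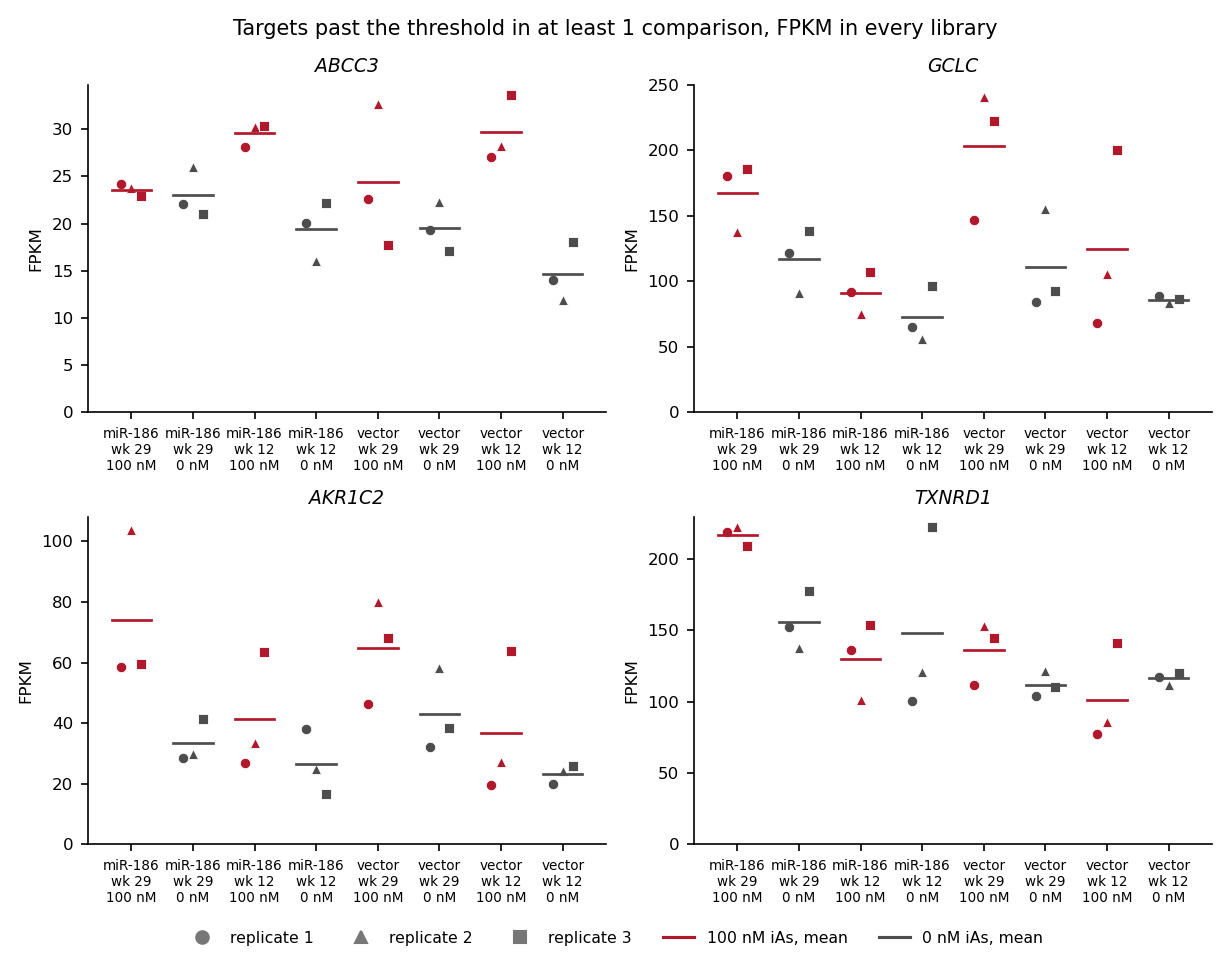
FPKM of ABCC3, GCLC, AKR1C2 and TXNRD1 in each of 24 libraries (y axis, from 0) by construct, week and iAs dose (x axis); symbols mark the replicate number, lines the mean of 3 libraries, red 100 nM and grey 0 nM. For ABCC3 the doses separate at week 12 and overlap at week 29, and the exposed miR-186 clones of week 29 hold TXNRD1 at 209 to 222 FPKM.

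Overexpression of miR-186 was compared with the vector at each dose and week. Untreated cells at week 12 gave 2 called members, MAFG (rose) and NFE2L2 (fell), against 3.44% of all genes (1.43% higher and 2.02% lower). At an unadjusted p under 0.05 the other 3 comparisons held 4 members lower at 0 nM and week 29 (19.9% of all genes), 2 higher and 2 lower at 100 nM and week 29 (14.5%), and 1 higher and 3 lower at 100 nM and week 12 (14.5%). limma called 0 members in each, against 2.86%, 0.864% and 2.02% of all genes. The libraries of the constructs did not overlap for 6 members in untreated cells at week 12 (27.6% of all genes) and 6 at week 29 (28%), and for 1 at 100 nM and week 12 (18.3%) and 5 at week 29 (15.4%). The calls of untreated cells at week 12 held with the GC correction. They were lost without any 1 of the 6 libraries for NFE2L2 (adjusted p 0.063 to 0.143), namely replicates 1, 2 and 3 of miR-186 and of vector clones. MAFG kept its call only without vector replicate 3 (adjusted p = 0.0483) and lost it without the other 5 (0.0627 to 0.18).

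At 100 nM and week 29 the members of smallest p were TXNRD1 and SRXN1, both higher in miR-186 clones. TXNRD1 stood at 217 ± 6.70 FPKM in miR-186 and 136 ± 21.7 FPKM in vector clones (0.68 ± 0.24; adjusted p = 0.186). SRXN1 stood at 99.3 ± 11.7 and 69.7 ± 10.4 FPKM (0.51 ± 0.20; adjusted p = 0.231). At 100 nM and week 12 SRXN1 was at 73.3 ± 4.43 FPKM in miR-186 and 50.8 ± 8.55 FPKM in vector clones (0.54 ± 0.20; adjusted p = 0.197), and it did not overlap at either week. CBR3 was at 3.24 ± 1.60 FPKM in miR-186 and 5.68 ± 2.16 FPKM in vector clones there (−0.74 ± 0.31; adjusted p = 0.28). In untreated cells at week 29, CBR1 stood at 18.4 ± 4.86 FPKM in miR-186 and 28.6 ± 4.75 FPKM in vector clones (−0.64 ± 0.27; adjusted p = 0.185). Same-numbered libraries deviated together in this comparison, although the constructs are different clones, and with the replicate block CBR1 passed (adjusted p = 0.042), the 1 member called, against 5.23% of all genes.

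Week 29 was set against week 12 in each construct and dose. TXNRD1, described above, was the only member called in the 4 comparisons. limma called 0 members in the other 3, against 2.9% of all genes in untreated miR-186 clones, 0.183% in exposed vector clones and 0.907% in untreated vector clones. At an unadjusted p under 0.05, 3 members were higher in untreated miR-186 clones (24.6% of all genes), 4 higher in exposed vector clones (14.5%), and 3 higher and 1 lower in untreated vector clones (9.48%). Libraries of the weeks did not overlap for 6 members in exposed miR-186 clones (33% of all genes), 5 in untreated miR-186 clones (30.7%), 2 in exposed vector clones (16.9%) and 10 in untreated vector clones (18.2%). In untreated miR-186 clones GCLM averaged 72.6 ± 17.2 FPKM at week 29 and 41.2 ± 8.62 FPKM at week 12 (0.80 ± 0.24; adjusted p = 0.0669), and SLC7A11 25.5 ± 4.92 and 12.7 ± 7.66 FPKM (1.10 ± 0.45; adjusted p = 0.142). Both passed without week 12 replicate 3 (adjusted p 0.0363 and 0.0499), and GCLM also without week 29 replicate 2 (0.045). The first library was the highest of its group for both genes (GCLM 50.7 FPKM, SLC7A11 21.6 FPKM). The second was the lowest of its group for GCLM (54.2 FPKM). Leaving out either therefore widens the difference between the weeks. In exposed vector clones GCLC averaged 203 ± 50.1 FPKM at week 29 and 125 ± 68.0 FPKM at week 12 (0.81 ± 0.31; adjusted p = 0.26), and it passed without week 12 replicate 3 (1.22, adjusted p = 0.0475). That library was again the highest of its group, at 200 FPKM against 68.4 and 105 FPKM. The share of all genes called without each of these libraries is not given here. AKR1C2 in exposed vector clones averaged 64.8 ± 17.2 FPKM at week 29 and 36.9 ± 23.6 FPKM at week 12 (0.95 ± 0.39; adjusted p = 0.285). In untreated vector clones MAFG averaged 4.73 ± 0.312 FPKM at week 29 and 3.21 ± 0.792 FPKM at week 12 (0.52 ± 0.21; adjusted p = 0.386).

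Whether the iAs effect itself differed between constructs or weeks was tested directly. No member passed in any of the 4 differences, and limma called 0% of all genes in each. At an unadjusted p under 0.05 there were 0 members for the difference between constructs at week 29 (1.91% of all genes) and 0 at week 12 (2.96%), 1 higher and 1 lower for weeks in vector clones (7.44%), and 1 lower for weeks in miR-186 clones (3.09%). The iAs effect on NFE2L2 was 0.72 ± 0.20 higher at week 29 than at week 12 in vector clones (adjusted p = 0.647). Between constructs (miR-186 minus vector) the members of smallest p were NFE2L2 (−0.36 ± 0.20) and SQSTM1 (0.71 ± 0.48) at week 29, both with an adjusted p of 1, and GCLM (0.65 ± 0.34) and NFE2L2 (0.32 ± 0.20) at week 12, both with an adjusted p of 0.977. In miR-186 clones the iAs effect on TXNRD1 was 0.60 ± 0.34 between the weeks (adjusted p = 1).

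Other genes of the pathway were read from further lists. Of 14 tested regulators and partners, the average iAs effect raised SYVN1 (a ligase that ubiquitinates NRF2; 0.55 ± 0.16, adjusted p = 0.0445) and lowered RBX1 (a subunit of the KEAP1 ligase; −0.47 ± 0.09, adjusted p = 0.0227). These counts stand beside 7.58% of all genes called, 2.9% higher and 4.67% lower. Of 24 other targets 2 rose, among them NMRAL2P (0.80 ± 0.21, adjusted p = 0.0302). The list medians were 0.14 and 0.07, against 0.02 for all genes, and the second was −0.05 with the GC correction. Of the 24 other targets, 13 and 11 lay above 0 under iAs in miR-186 clones at weeks 29 and 12 (medians 0.04 and −0.06). In vector clones 10 and 12 did (medians −0.05 and 0.10). The medians of the antioxidant enzymes outside the list were 0.06, −0.21, −0.08 and −0.20 in the same order. Of 19 antioxidant enzymes outside the list, SOD1 (−0.38 ± 0.09, adjusted p = 0.0259) and PRDX3 (−0.46 ± 0.10, adjusted p = 0.0245) fell. With the GC correction RBX1 (−0.36, adjusted p = 0.0445) and SOD1 (−0.49, adjusted p = 0.0421) kept their calls. Those of SYVN1 (0.36, adjusted p = 0.205), NMRAL2P (0.86, adjusted p = 0.0506) and PRDX3 (−0.35, adjusted p = 0.065) were lost.

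A list of 14 genes held ATF4 and targets of it, without SLC7A11, which ATF4 shares with NRF2. Of these, 13 lay above 0 in the iAs average, against 52.3% of all genes. SESN2 (0.62 ± 0.19, adjusted p = 0.0475) and ATF5 (0.29 ± 0.09, adjusted p = 0.0452) rose, against 2.9% of all genes called higher. Both calls were lost with the GC correction, at 0.35 for SESN2 (adjusted p = 0.288) and 0.01 for ATF5 (adjusted p = 0.962). In miR-186 clones at week 12 all 14 lay above 0, against 53.1% of all genes (median 0.61, with the GC correction 0.42), and none passed. DDIT3, the stress factor CHOP, rose between weeks in all 4 comparisons (adjusted p 0.0122 to 0.0434), and these calls held with the GC correction. In exposed miR-186 clones it went to 208 ± 44.6 FPKM at week 29 against 109.8 ± 21.8 FPKM at week 12. The shares of all genes called were 12.2% and 2.9% in exposed and untreated miR-186 clones, and 0.183% and 0.907% in exposed and untreated vector clones. SLC3A2 also rose between weeks in untreated miR-186 clones (1.26, adjusted p = 0.0496, and 0.0258 with the GC correction). Between constructs, the aldehyde dehydrogenase ALDH3A1 fell at 100 nM and week 12 in miR-186 clones (16.4 ± 6.73 FPKM against 68.4 ± 23.9 FPKM in vector clones; −2.04 ± 0.39, adjusted p = 0.00815). It was 1 of 24 other targets, against 2.02% of all genes called. In untreated cells at week 12 GLRX5 fell (−0.71, adjusted p = 0.0338), 1 of 19 antioxidant enzymes, against 3.44%. Between weeks, MAFF fell in miR-186 clones at 0 and 100 nM (adjusted p = 0.0112 and 0.0281). BTRC, NMRAL2P, GLRX2 and GLRX3 rose in those at 100 nM. These calls between weeks were lost with the GC correction.

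Within the vector clones several members followed the replicate number over all 4 groups, a test chosen after the values were seen. A limma F test of replicate number across the 12 vector libraries called 5 members (GPX2, ME1, EPHX1, AKR1B10 and AKR1C3), against 5.35% of all genes. GPX2 was highest in replicate 2 and lowest in replicate 3 of each group (mean deviations from the group means of 0.62 and −0.49 on the log2 scale; adjusted p = 0.00343). ME1, malic enzyme, was lowest in replicate 2 of each group (mean deviation −0.58; adjusted p = 0.00585). EPHX1 (adjusted p = 0.00651) and AKR1B10 (0.0211) were highest in replicate 2 of each group, and AKR1C3 (0.0317) was lowest in replicate 1 of each. The 5 stayed called with the GC correction, GSR was called as well (adjusted p = 0.0498), and so were 8.02% of all genes. In miR-186 clones 0 members were called, against 2.04% of all genes, and the difference between constructs was not tested.

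**Figure D5:**
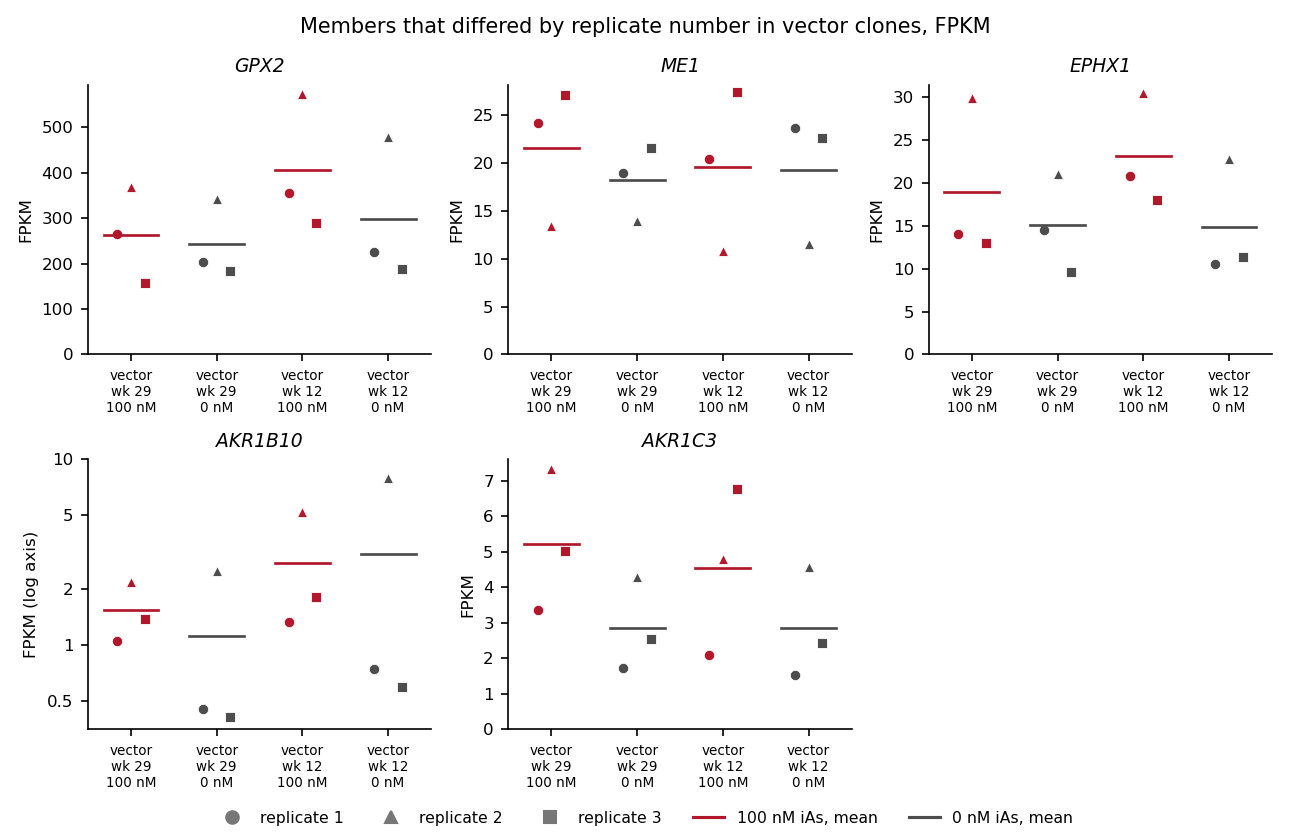
FPKM of GPX2, ME1, EPHX1, AKR1B10 (log axis) and AKR1C3 in the 12 vector libraries by week and iAs dose (x axis); symbols mark the replicate number, lines the mean of 3 libraries, red 100 nM and grey 0 nM. Replicate 2 (triangles) is the highest of its group in all 4 groups for GPX2, EPHX1 and AKR1B10 and the lowest in all 4 for ME1.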

How the data were processed

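RNA of 24 HaCaT libraries was sequenced as paired ends from a stranded mRNA kit, in one pool, per the labels' protocols. The authors deposited FPKM per gene, with STAR 2.6.0c, Cuffdiff 2.2.1 and GRCh38 named in the submitters' processing notes. The annotation release and strand setting are not given in the sources used here. Gene coordinates are those of GENCODE 29, matched by ID. FPKM hold no read counts, so no count model was used and depth is unknown.

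Values of log2(FPKM + 0.5) were fitted for the 14228 genes that averaged 0.5 FPKM or more with limma 3.58.1 (R 4.3.3; 8 group means, trended robust variance). p-values were adjusted by Benjamini-Hochberg over all genes within each of 17 comparisons, at a threshold of 0.05. Fold changes on this scale understate those of low genes. The GC correction subtracts, per library, a natural spline (5 degrees of freedom) of log2 level on gene GC content, set by genes over 1.5 FPKM and covering 99.86% of the genes tested. Other alternatives were pseudocounts of 0.1 and 1, no filter, a mean of at least 1 FPKM, median ratio scaling, a fit on only the groups compared, the replicate block, and leaving out each library.

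Members and lists were chosen with earlier results of these data known. Values per library are given for the 4 regulators, every member past the threshold in at least 1 comparison, the 6 members of widest range and the member of highest mean; where no member passed, the 2 of smallest p are named, and of the other lists up to 4. The values of 1 gene of the other lists are not reported here. Same-numbered libraries deviated together (every correlation over 0.1) in 4 of 12 comparisons: iAs in vector clones at week 29 (0.49, 0.46 and 0.62), miR-186 against vector at 0 nM and week 29 (0.21, 0.23 and 0.20), and week 29 against week 12 in vector clones at 0 nM (0.31, 0.52 and 0.17) and in miR-186 clones at 100 nM (0.34, 0.41 and 0.39). This pairing comes from the data, not from the labels.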

Additional observations from a re-analysis of the deposited data

How the results depend on the processing

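Across the alternatives other than leaving out a library, the count of called members stayed within 1.5 times in 130 cases and moved in 22, and no called change of a member turned round. Of the averaged iAs changes that were not called, KEAP1 (−0.00) and TALDO1 (−0.13) turned with the GC correction. For iAs in vector clones at week 12 the count was 0 with no filter, with only the groups compared, with the GC correction, and with the GC correction and replicate block. For miR-186 against vector at 0 nM and week 12 it was 1 at a pseudocount of 1, 0 with no filter and 0 with only the groups compared. At week 29 it was 1 (CBR1) with the replicate block, with or without the GC correction. For week 29 against week 12, untreated vector clones gave 1 (NFE2L2) with the GC correction, with or without the replicate block. Untreated miR-186 clones gave 1 with the replicate block (GCLM) and 1 with the GC correction and replicate block (BACH1). The share of all genes called in the same settings is not given here for NFE2L2, GCLM and BACH1. The block and the correction also moved the calls over all genes in the comparisons listed below. Exposed miR-186 clones gave 0 with no filter, median ratio scaling, only the groups compared, the GC correction, or the GC correction and replicate block, and 2 with the replicate block alone. For the averaged iAs effect it was 0 with no filter, 0 with the GC correction, 10 with the replicate block (the 4 and KEAP1, MAFG, GSR, HMOX1, AKR1C1 and AKR1C3, against 13.4% of all genes), and 5 with both (GCLC, GSR, AKR1C2, AKR1C3 and ABCC3, against 3.75%). The block changed no other count by over 1.5 times.

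Leaving out 1 library gave counts of 0 to 0 for iAs in vector clones at week 12, 0 to 1 for miR-186 against vector at 0 nM and week 12, and 0 to 10 for the average. For weeks the counts were 0 to 1 in exposed vector, 0 to 2 in untreated miR-186 and 0 to 1 in exposed miR-186 clones. Over all genes, iAs in vector clones at week 12 gave 197 calls, against 0 with no filter, 0 with only the groups compared, 391 with median ratio scaling, 393 at a mean of at least 1 FPKM, 1428 with the block, 8 with the GC correction and 6 with both. The average gave 1078, against 24 with no filter, 1907 with the block, 111 with the GC correction and 533 with both. Weeks in exposed miR-186 clones gave 1732, against 819 with no filter, 103 with only the groups compared, 3194 with the block and 727 with the GC correction. The cause of these shifts was not tested. With unknown depth, the precision of low members such as OSGIN1 and AKR1B10 cannot be set. A fit of the average on only the groups compared does not exist, since it uses all groups.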
